A study of Mus musculus with 12 samples.

Results

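Immunoglobulin variable segments are the germline building blocks from which each B cell assembles the antigen-binding end of its antibody chains. They were taken here as the rows of the deposited count table with the annotated class IG_V_gene, which are 218 of 54532 rows. Of these, 113 lie in the heavy chain locus on chromosome 12, 102 in the kappa light chain locus on chromosome 6 and 3 in the lambda light chain locus on chromosome 16. The class comes from the annotation.

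A developing B cell joins 1 heavy chain V segment to a D and a J segment, and 1 light chain V segment to a J segment, and then normally expresses that single pair. The promoter of the chosen segment drives the joined gene, so a read from a V exon in mature B cell RNA tells which segment the cell carries. A sample of many B cells therefore gives a usage profile. In mice the Ighv1 family, also called J558, is the largest heavy chain family, and kappa chains outnumber lambda chains.

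The cells were primary B lymphocytes sorted from 3 Tmem173-/- and 3 wild type mice. Tmem173 encodes STING, a receptor for cyclic dinucleotides. Cells in 96-well plates received 3'3'-cGAMP, a cyclic dinucleotide made by bacteria, for 12 hours or were kept as controls. The 12 libraries of poly-T purified RNA form 4 groups of 3, namely Tmem173-/- cGAMP, Tmem173-/- control, wild type cGAMP and wild type control. The labels give neither the strain and age of the mice nor the kind of Tmem173 allele. Replicate numbers are not tied to mice there. With 6 libraries from 3 mice in each genotype, the libraries cannot all be separate mice, and p-values measure only the spread between these libraries.

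Total assigned counts were 26490593 to 31417833 per library, and 54375 to 87430 of them fell on V segments. Tmem173 itself was at 82.8, 101.2 and 95.8 CPM (counts scaled to library size) in Tmem173-/- cGAMP libraries, 80.2, 94.7 and 103.0 CPM in Tmem173-/- control libraries, 44.6, 49.2 and 48.0 CPM in wild type cGAMP libraries and 91.1, 102.1 and 92.6 CPM in wild type control libraries. A count over the whole gene does not check an allele that leaves the transcript in place, so these values do not check the genotype, and the groups are named as the labels name them. All 6 B cell markers were detected and summed to 4760 to 5785 CPM in Tmem173-/- cGAMP, 4837 to 5512 CPM in Tmem173-/- control, 3235 to 4001 CPM in wild type cGAMP and 4583 to 5556 CPM in wild type control libraries. T cell markers summed to at most 16.9 CPM and neutrophil markers to at most 21.7 CPM, each highest in wild type cGAMP replicate 1, followed by wild type control replicate 1, and the neutrophil marker Ly6g was at 0 throughout. Monocyte and macrophage markers summed to 41.6 to 56.6, 44.9 to 54.5, 6.37 to 13.5 and 30.7 to 42.5 CPM in the same order of groups, mostly from Adgre1, which was at 3.70 to 5.27 CPM in wild type cGAMP and 23.1 to 37.99 CPM in wild type control libraries. Dendritic cell markers summed to 36.3 to 44.5 CPM in wild type cGAMP libraries, against 14.7 to 19.4 CPM in wild type control libraries, and germinal centre markers to 47.8 to 62.1 CPM against 79.2 to 90.8 CPM. Of the 5 germinal centre markers, 1 was called lower in this comparison and 4 did not pass, where 25.4% of all tested genes were lower. The part of these cell types in the V segment results was not tested.

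Many V segments are close copies of each other, which limits how surely a short read can be given to one of them. The pairs below are shown because results further down turn on at least one member of each, and because they show how little can separate 2 segments. Each line gives 90 bases of the C57BL/6J reference coding sequence from the GENCODE release M21 transcripts, 5′ to 3′, with the bases that differ from the partner in capitals. All 10 genes lie on the minus strand of GRCm38.
Ighv1-71: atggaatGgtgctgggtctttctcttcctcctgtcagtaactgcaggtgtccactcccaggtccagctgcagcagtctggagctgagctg
Ighv1-62-2: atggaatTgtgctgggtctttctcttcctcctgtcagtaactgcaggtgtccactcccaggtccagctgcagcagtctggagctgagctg
Ighv1-26: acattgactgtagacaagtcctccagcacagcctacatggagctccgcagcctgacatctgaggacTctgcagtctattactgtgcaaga
Ighv1-18: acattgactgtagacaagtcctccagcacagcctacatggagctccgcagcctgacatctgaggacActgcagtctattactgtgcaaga
Ighv2-3: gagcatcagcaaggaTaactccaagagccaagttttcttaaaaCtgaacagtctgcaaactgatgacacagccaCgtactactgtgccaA
Ighv2-6-8: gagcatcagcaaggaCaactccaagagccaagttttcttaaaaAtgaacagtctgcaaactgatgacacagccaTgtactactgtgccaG
Igkv8-24: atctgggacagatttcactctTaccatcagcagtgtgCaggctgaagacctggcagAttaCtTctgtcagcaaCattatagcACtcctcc
Igkv8-30: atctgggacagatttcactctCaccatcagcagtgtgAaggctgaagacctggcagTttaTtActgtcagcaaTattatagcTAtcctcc
Iglv1: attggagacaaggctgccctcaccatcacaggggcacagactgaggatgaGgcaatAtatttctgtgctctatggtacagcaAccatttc
Iglv2: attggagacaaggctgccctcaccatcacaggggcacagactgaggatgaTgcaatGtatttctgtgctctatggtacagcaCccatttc

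Ighv1-71 (chr12:115742205-115742647) and Ighv1-62-2 (chr12:115446409-115446869) differed at 1 base of 359 coding bases, at coding base 8 counted from the start codon, and the first 90 coding bases shown hold that base. Ighv1-26 (chr12:114788372-114788805) and Ighv1-18 (chr12:114682632-114683065) were 96.9% identical over the coding sequence, with 1 difference in the last 90 bases. Ighv2-3 (chr12:113611187-113611617) was 94.3% identical to its nearest relative Ighv2-6-8 (chr12:113796138-113796567), and Igkv8-24 (chr6:70216858-70217421) 91.0% to Igkv8-30 (chr6:70117061-70117620). The lambda segments Iglv1 (chr16:19085017-19085500) and Iglv2 (chr16:19260401-19260859) were 96.9% identical. Over all members, 20 of 113 heavy and 16 of 102 kappa segments were at least 97% identical to another segment of their chain, and no 2 coding sequences were the same. The handling of reads that fit several places is not given in the sources used here, so the split of counts within such pairs is uncertain. Iglv1 overlaps an antisense gene and the libraries' strandedness is not given, so its counts are also uncertain in that way.

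Usage was broad in every library. It was measured as each segment's share of the summed FPKM (fragments scaled by gene length and library size) of its chain, so that segments of different length can be compared. The 5 most used heavy chain segments were Ighv1-26 with a mean over the 12 libraries of 7.62%, Ighv9-3 with 4.67%, and Ighv1-82, Ighv1-80 and Ighv1-18. For kappa they were Igkv10-96 with 5.51%, Igkv6-15 with 5.32%, and Igkv1-117, Igkv1-110 and Igkv19-93. Ighv1-26 was the most used heavy segment in all 12 libraries, and the lead among kappa segments passed between Igkv10-96 and Igkv6-15.

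The Ighv1 family alone made up 57.4% of heavy chain usage, against 7.39% for Ighv5 and 7.04% for Ighv9. Kappa usage was more even across families, with Igkv6 at 17.1%, Igkv4 at 13.02% and Igkv1 at 11.7%. Among the 3 lambda segments Iglv1 took 57.8%, Iglv3 27.97% and Iglv2 14.3%. At the other end, 6 heavy chain segments (Ighv7-2, Ighv16-1, Ighv1-16, Ighv1-24, Ighv1-62-1 and Ighv8-13) had no count in any library, and 197 of the 218 had a count in all 12.

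Diversity can be put as an effective number of segments, the exponential of the Shannon entropy, which is the number of equally used segments that would give the same evenness. For heavy chains it was 60.5 ± 0.554 in Tmem173-/- cGAMP, 60.9 ± 0.623 in Tmem173-/- control, 60.7 ± 2.48 in wild type cGAMP and 60.7 ± 1.03 in wild type control libraries (SD, n = 3 each). For kappa chains it was 57.6 ± 0.930, 58.5 ± 1.27, 57.2 ± 0.529 and 57.4 ± 0.580 in the same groups, and for lambda chains it lay between 2.49 and 2.65 in every library. The groups overlapped for both heavy and kappa chains.

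**Figure D1:**
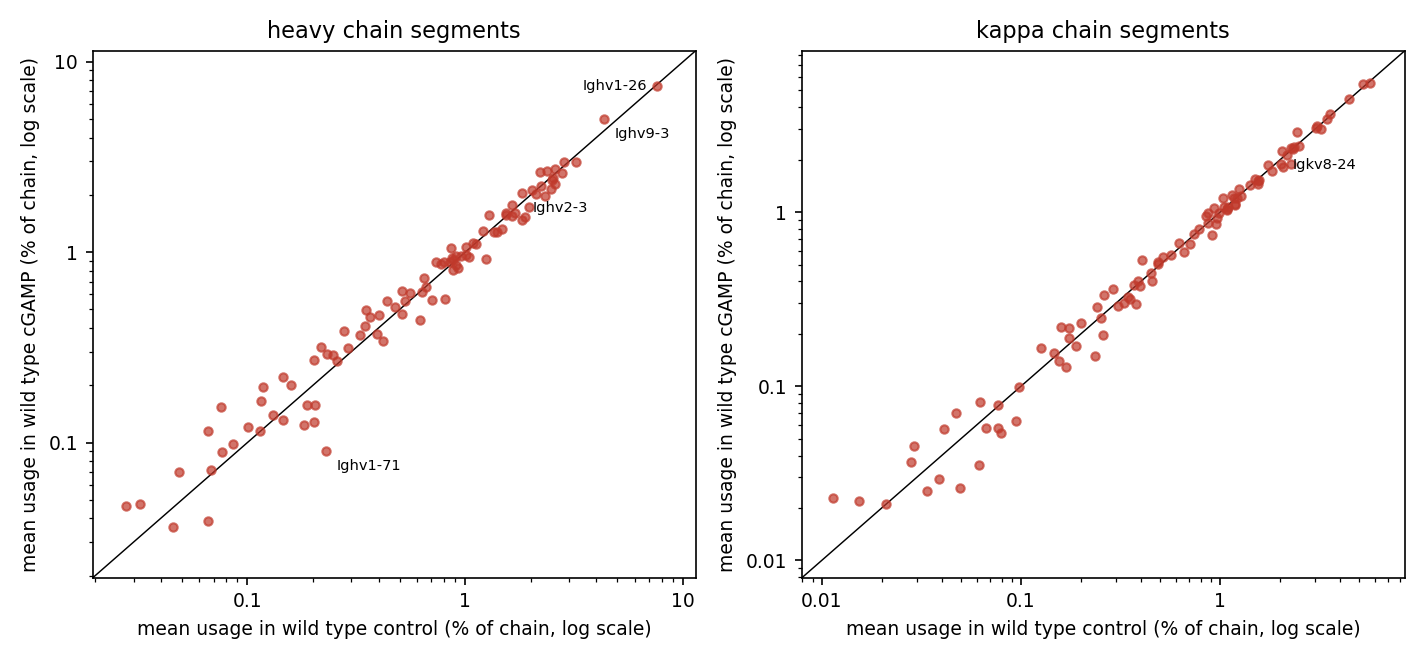
Mean usage of each tested heavy (left) and kappa (right) segment in wild type cGAMP libraries (vertical axis) against wild type control libraries (horizontal axis), as percent of the chain's summed FPKM on log scales, with the line of equality. Most points follow the line over the whole range of usage, from under 0.1% to above 5%, and Ighv1-71 falls below it.

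The usage profiles of libraries were set against each other by the Bray-Curtis distance, which is 0 for the same profile and 1 for profiles with no segment in common. For heavy chains the median distance between cGAMP and control libraries was 0.0641 in Tmem173-/- cells (9 pairs) and 0.0944 in wild type cells (9 pairs), and the median within a group was 0.0752 (12 pairs). For kappa chains the same medians were 0.0562, 0.0628 and 0.0630. The ranges overlapped for both chains.

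V segment transcripts were lower in wild type cells given cGAMP than in wild type controls, most often those of the heavy chain. Of 198 segments tested, 67 fell and 0 rose in wild type cGAMP against wild type control libraries (33.8% lower), where 25.4% of all 14473 tested genes were lower and 22.4% higher. The heavy chain had 49 of 97 tested segments lower (50.5%, median log2 fold change -0.53), kappa 17 of 98 (17.3%, median -0.29) and lambda 1 of 3, which was Iglv3. The share for kappa was below that of all genes. The median log2 fold change over all tested genes was -0.00, and 180 of the 198 segments had a negative value, against 50.3% of all genes. The test was edgeR's quasi-likelihood test with Benjamini-Hochberg adjustment over all tested genes and a threshold of 0.05.

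The test could be made for 97 of 113 heavy, 98 of 102 kappa and all 3 lambda segments. The other 20 were too low, with at most 60 counts over the 12 libraries. The count of lower segments was 40 without wild type control replicate 3, and it was 9 when libraries were scaled to equal V segment totals, which moves the median of all tested genes to 0.35 and asks only whether a segment fell more than its class. In that scaling 9 heavy, 0 kappa and 0 lambda segments were lower.

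**Figure D2:**
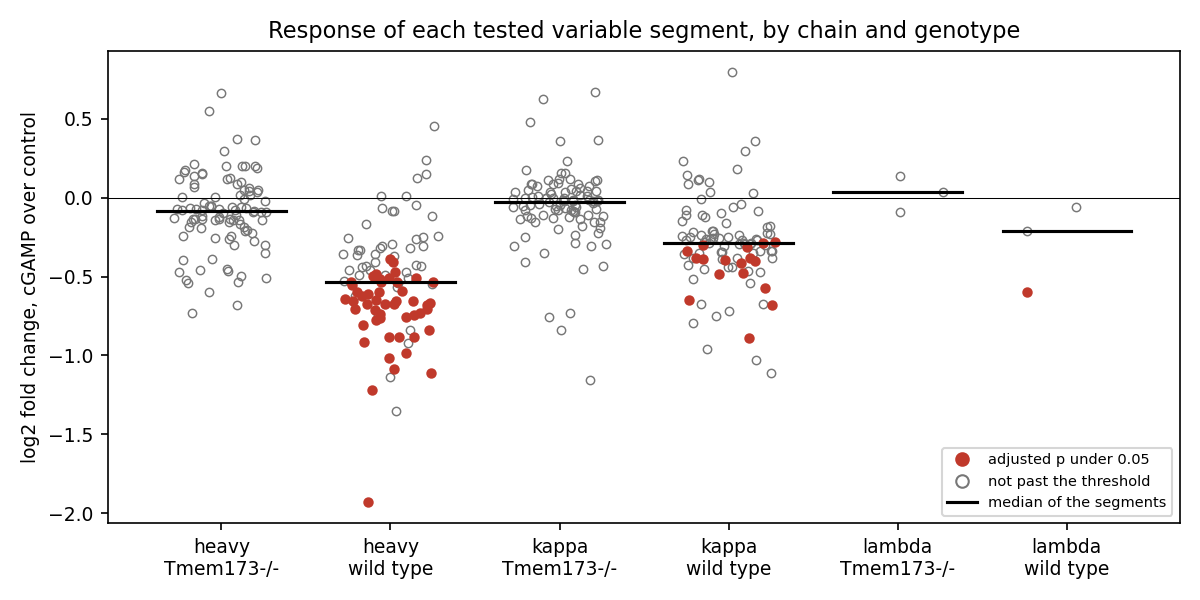
Log2 fold change of cGAMP over control (vertical axis) for every tested V segment, by chain and genotype, with filled points for an adjusted p under 0.05 and a line at the median of the segments. Filled points appear in wild type cells alone: 49 heavy, 17 kappa and 1 lambda segment, all below 0.

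Summed over all chains, V segments took 0.257% ± 0.0236 of counts in Tmem173-/- cGAMP, 0.264% ± 0.0078 in Tmem173-/- control, 0.218% ± 0.0189 in wild type cGAMP and 0.266% ± 0.0191 in wild type control libraries (SD, n = 3 each). In single libraries the share was 0.203%, 0.239% and 0.211% in wild type cGAMP, against 0.245%, 0.271% and 0.282% in wild type control, and the groups did not overlap. Such a share is a sum over the members and was given no test. The 95% Wilson intervals reached at most 0.00195 percentage points to either side, and they cover counting error only. In bulk RNA, fewer cells with a segment and less RNA per cell cannot be told apart.

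The heavy chain share was 0.0491%, 0.0484% and 0.0467% in wild type cGAMP libraries, against 0.0666%, 0.0731% and 0.0670% in wild type control libraries. All 3 treated libraries lay below all 3 controls with a wide gap. In Tmem173-/- cells the heavy share was 0.0706%, 0.0764% and 0.0592% with cGAMP and 0.0705%, 0.0755% and 0.0749% in controls, and these ranges overlapped. The kappa share was 0.152% ± 0.0168 in wild type cGAMP and 0.177% ± 0.0165 in wild type control libraries, again with overlap, and the lambda share 0.0174% ± 0.00214 and 0.0201% ± 0.00203 (SD, n = 3 each). Heavy chain counts per kappa count were 0.355, 0.283 and 0.317 in wild type cGAMP libraries, against 0.414, 0.414 and 0.346 in wild type control libraries, where the highest treated library exceeded the lowest control. Taken by replicate number, this ratio, the kappa share and the lambda share were each lower in every treated library than in the same-numbered control. The labels do not tie the numbers to mice, so this was not read as a paired result.

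**Figure D3:**
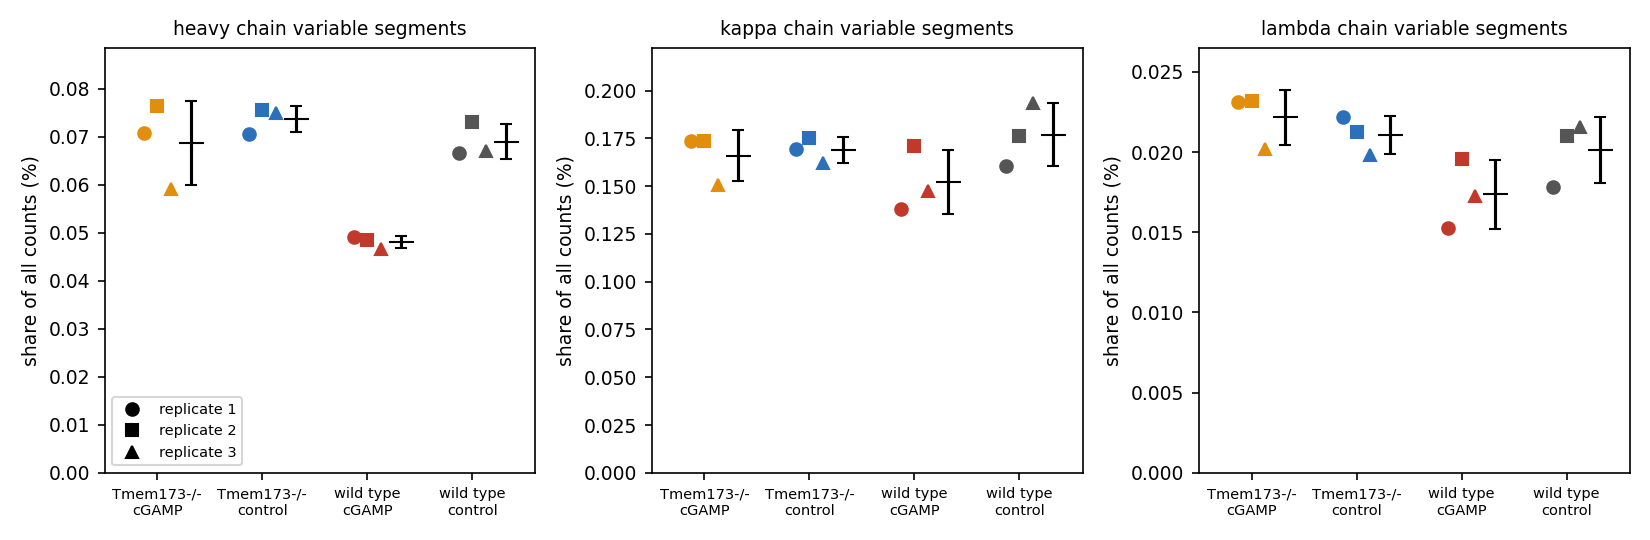
Share of all counts (vertical axis, percent) taken by heavy, kappa and lambda V segments in each library, by group, with marker shapes for the replicate numbers and the mean ± SD (n = 3) beside the points. The heavy share of the 3 wild type cGAMP libraries lies between 0.0467% and 0.0491%, below every other library.

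The most used heavy segments were among those that fell. Ighv1-26 was at 30.5, 30.7 and 41.6 CPM in wild type cGAMP libraries, against 50.4, 48.3 and 59.8 CPM in wild type control libraries. Its log2 fold change was -0.62 ± 0.14 (SE, adjusted p = 0.0017, edgeR), and the groups did not overlap. Ighv9-3 fell less, by 0.39 ± 0.13 on the log2 scale (SE, adjusted p = 0.021, edgeR), and this call was lost without either of wild type cGAMP replicates 1 and 2, wild type control replicate 3, both wild type libraries numbered 1 or both numbered 2. Ighv1-82, Ighv1-80 and Ighv1-18 fell by 0.71, 0.51 and 0.67, that of Ighv1-80 no longer called without both wild type libraries numbered 2. Scaled to equal V segment totals, none of these segments was called lower, Ighv1-26 and Ighv9-3 included.

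Larger changes were found in less used members of the same family. Among segments with at least 5 CPM in the higher group and no overlap between groups, Ighv1-61 fell most, by 1.11 ± 0.25 on the log2 scale (SE, adjusted p = 0.0018, edgeR). It had 3.78, 1.96 and 2.10 CPM in wild type cGAMP libraries, against 4.09, 6.15 and 6.67 CPM in wild type control libraries, so that 1 treated library lay close under the lowest control. Ighv1-76 followed with 4.66, 5.09 and 2.28 CPM in wild type cGAMP, against 7.76, 7.46 and 9.15 CPM in wild type control libraries (log2 fold change -1.02 ± 0.23, SE). Ighv1-15, Ighv1-81 and Ighv1-52 fell by 0.89, 0.89 and 0.84, with no treated library above 9.79 CPM and no control below 11.4 CPM.

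All 5 of these belong to the Ighv1 family. It had 49 of 53 members tested, of which 32 were lower and 0 higher (median log2 fold change -0.66). Over all tested genes 25.4% were lower and 22.4% higher. Lower members made up a smaller part of Ighv5 with 2 of 9 tested (median -0.37), Ighv2 with 1 of 8 (median -0.42), Ighv3 with 2 of 6, Ighv8 with 2 of 5 and Ighv9 with 2 of 4. For Ighv5 and Ighv2 that part was below the share of all tested genes. In the small families Ighv14 and Ighv10, 3 of 4 and 2 of 2 were lower. Within heavy chain usage the Ighv1 family took 55.7%, 52.2% and 57.5% in wild type cGAMP libraries, against 58.4%, 57.5% and 58.9% in wild type control libraries. These ranges met at 57.5%, and the family's share in Tmem173-/- libraries was 57.1% to 58.7%. No test was made of the difference between families.

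Ighv1-71, the segment with the lowest log2 fold change, was chosen after its values were seen. It had 0.473, 0.344 and 0.356 CPM in wild type cGAMP libraries, against 1.57, 1.13 and 1.80 CPM in wild type control libraries (log2 fold change -1.93 ± 0.34, SE, adjusted p = 0.00022, edgeR). Its near copy Ighv1-62-2 had 0.764, 0.551 and 0.783 CPM, against 0.712, 2.00 and 1.45 CPM, with a log2 fold change of -0.99 ± 0.37 (SE, adjusted p = 0.035, edgeR), a call lost under 10 of the alternatives. Since a single coding base separates them, their sum is the safer value: 1.24, 0.895 and 1.14 CPM in wild type cGAMP libraries, against 2.28, 3.13 and 3.25 CPM in wild type control libraries. The sums of treated libraries all lay below those of controls.

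Among kappa segments the changes were smaller. Igkv10-96, the most used, had 70.5, 86.7 and 84.7 CPM in wild type cGAMP libraries, against 88.0, 95.2 and 122 CPM in wild type control libraries. It fell by 0.34 ± 0.11 on the log2 scale (SE, adjusted p = 0.020, edgeR), a call lost without wild type cGAMP replicate 1 or wild type control replicate 3. Igkv1-117 fell by 0.29 ± 0.10 (SE, adjusted p = 0.029, edgeR), and it too was not called without wild type control replicate 3, either of wild type cGAMP replicates 1 and 3, or both wild type libraries numbered 1. Its call was also lost with scaling by library totals and with limma on FPKM. Scaled to equal V segment totals, the sign of both segments turned. Igkv6-15, Igkv1-110 and Igkv19-93 did not pass the threshold, with log2 fold changes of -0.23, -0.25 and -0.29.

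The remaining kappa segments named for a high library gave few calls. Igkv6-32 had 24.6, 33.0 and 27.4 CPM in wild type cGAMP libraries, against 30.2, 44.6 and 51.9 CPM in wild type control libraries, with 1 treated library above the lowest control. It fell by 0.57 ± 0.19 on the log2 scale (SE, adjusted p = 0.023, edgeR), and lost the call without any one of wild type cGAMP replicates 1 and 3 and wild type control replicates 2 and 3. Igkv6-23 and Igkv1-135 did not pass, with log2 fold changes of -0.29 and -0.27. Both were highest in wild type control replicate 3, at 69.0 and 73.9 CPM, which also had the highest kappa share of all libraries, 0.194%.

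Of the 3 lambda segments, only Iglv3 passed the threshold in the wild type response. Iglv3, also called V lambda x, had 34.5, 42.9 and 38.7 CPM in wild type cGAMP libraries, against 46.2, 66.3 and 63.5 CPM in wild type control libraries, without overlap. It fell by 0.60 ± 0.13 on the log2 scale (SE, adjusted p = 0.00094, edgeR). This call was lost with libraries scaled to equal V segment totals (log2 fold change -0.24). Iglv1 had 89.7, 120 and 103 CPM in wild type cGAMP and 107, 115 and 140 CPM in wild type control libraries, and Iglv2 25.0, 28.4 and 28.1 CPM against 25.3, 27.0 and 32.8 CPM. Neither passed the threshold, and their ranges overlapped. Within lambda usage, Iglv3 took 23.2%, 22.6% and 22.9% in wild type cGAMP libraries, against 25.98%, 32.04% and 27.1% in wild type control libraries, and Iglv2 18.0%, 15.9% and 17.7% against 15.2%, 13.9% and 14.9%. Both of these shares were separate between the groups. Shares within a chain are parts of 1 whole, so a lower share of Iglv3 by itself raises the others.

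Position along the heavy chain locus went with the size of the change. The locus lists its V segments in a row upstream of the D and J segments, and the farthest one tested lies 2570 kb from the J segments. With tested segments split into 3 bins by distance, 11 of 32 were lower in the bin nearest to J (median log2 fold change -0.40), 15 of 32 in the middle bin (median -0.54) and 23 of 33 in the farthest bin (median -0.66). Over all tested genes 25.4% were lower. Spearman's rho between distance and log2 fold change was -0.36 over 97 segments, which share the 12 libraries and are not independent. Mean FPKM, which sets how small a change can be called, had a median of 11.1, 11.6 and 15.8 in the same bins, and its rho with log2 fold change was -0.30. The Ighv1 segments are found mainly in the distal part, and the part of family, level or position in the pattern was not tested. For kappa, rho with distance was -0.087 over 98 segments.

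**Figure D4:**
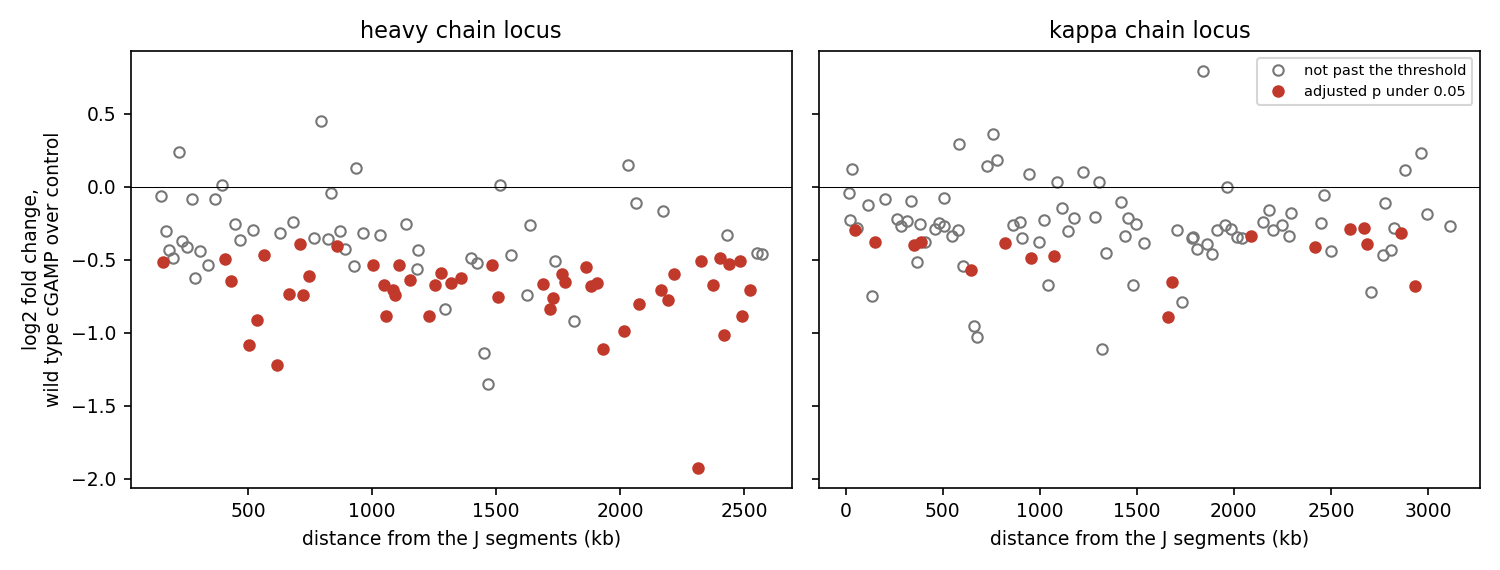
Log2 fold change of wild type cGAMP over wild type control (vertical axis) against distance from the J segments in kb (horizontal axis) for tested heavy (left) and kappa (right) segments, filled where the adjusted p is under 0.05. Heavy chain points drift downward with distance (Spearman's rho -0.36) while for kappa points rho is -0.087.

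Cells labelled Tmem173-/- showed no called change. In Tmem173-/- cGAMP against Tmem173-/- control libraries, 0 of 198 segments were higher and 0 lower with edgeR, as for all tested genes (0% called in either direction). At an unadjusted p under 0.05 there were 4, all lower, and DESeq2 called 0. The median log2 fold change was -0.08 for heavy, -0.02 for kappa and 0.04 for lambda segments. Ighv1-26 had 55.2, 59.4 and 41.2 CPM in Tmem173-/- cGAMP libraries and 54.1, 56.8 and 53.9 CPM in Tmem173-/- control libraries, and Iglv3 59.4, 71.0 and 65.6 CPM and 60.4, 69.6 and 61.3 CPM. The ranges of both segments overlapped.

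The response itself was compared between the genotypes as the Tmem173-/- response minus the wild type response. A positive value means a higher log2 fold change in Tmem173-/- cells, be it a smaller fall or a rise. Of the 198 segments, 23 had a higher and 0 a lower response (11.6% higher, where 17.5% of all tested genes were higher and 14.1% lower). By chain these were 21 of 97 heavy segments (21.6%), 1 of 98 kappa and 1 of 3 lambda. The single kappa segment was Igkv6-17 (0.52 ± 0.16, SE, adjusted p = 0.021, edgeR), named after its value was seen and not called without Tmem173-/- cGAMP replicate 2 or 3 or wild type cGAMP replicate 1 or 3, and the lambda segment was Iglv3 (0.64 ± 0.18, SE, adjusted p = 0.012, edgeR). The count depended on single libraries. It was 7 without Tmem173-/- cGAMP replicate 2 and 14 without Tmem173-/- control replicate 1, Tmem173-/- control replicate 2 or wild type control replicate 3.

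Ighv1-64 had the lowest adjusted p of this comparison. It had 18.6, 26.4 and 19.9 CPM in Tmem173-/- cGAMP, 18.2, 19.9 and 19.4 CPM in Tmem173-/- control, 12.6, 10.01 and 11.6 CPM in wild type cGAMP and 18.5, 21.3 and 19.9 CPM in wild type control libraries. Only the wild type cGAMP libraries were low. The difference of responses was 0.98 ± 0.19 on the log2 scale (SE, adjusted p = 0.00090, edgeR), and it was called under all alternatives tried. Ighv1-61 had the largest difference among segments with at least 5 CPM, 1.27 ± 0.35, followed after Ighv1-64 by Ighv1-76 with 0.96 ± 0.32, Ighv10-3 with 0.94 ± 0.27 and Ighv1-59 with 0.82 ± 0.25 (SE). The call of Ighv1-61 and of Ighv10-3 was lost without both wild type libraries numbered 2. That of Ighv1-76 was lost without any one of Tmem173-/- cGAMP replicate 2, Tmem173-/- control replicates 1 and 3, wild type cGAMP replicate 3 and wild type control replicate 3, and that of Ighv1-59 without any one of Tmem173-/- cGAMP replicate 2, Tmem173-/- control replicate 2 and wild type cGAMP replicates 1 and 3.

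Between the genotypes, the groups differed with cGAMP and not detectably without it. In Tmem173-/- cGAMP against wild type cGAMP libraries, 58 segments were higher and 0 lower (29.3% higher, where 24.9% of all tested genes were higher and 23.5% lower): 49 of 97 heavy (50.5%), 7 of 98 kappa (7.14%) and 2 of 3 lambda segments. This comparison shares its wild type cGAMP libraries with the wild type response and is no independent view of it. The count was 35 without Tmem173-/- cGAMP replicate 2, and with equal V segment totals 11 were higher and 2 lower (median of all tested genes -0.26). Iglv1, 1 of the lambda segments (0.34 ± 0.13, SE, adjusted p = 0.047, edgeR), lost its call under 9 of the alternatives. Among segments of at least 5 CPM and no overlap between the groups compared, Ighv1-76 and Ighv1-61 differed most. Their differences were 1.05 ± 0.23 and 1.04 ± 0.25 on the log2 scale (SE). Ighv1-64 with 0.93 ± 0.13, Ighv1-53 with 0.83 ± 0.14 and Ighv1-74 with 0.82 ± 0.22 followed (SE).

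Ighv1-53 had 23.0, 18.7 and 14.5 CPM in Tmem173-/- cGAMP libraries, against 11.3, 10.3 and 10.1 CPM in wild type cGAMP libraries. Ighv1-74 had 6.88, 8.35 and 5.57 CPM in Tmem173-/- cGAMP libraries, against 2.62, 4.23 and 4.91 CPM in wild type cGAMP libraries. Both were named by a rule that required these groups not to overlap, so their separation is no further result. In Tmem173-/- control against wild type control libraries, 0 segments were higher and 0 lower (0% of all tested genes in either direction, edgeR), with 3, all lower, at an unadjusted p under 0.05 and 0 called by DESeq2.

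Lambda counts per kappa count were separate between the genotypes. They were 0.133, 0.133 and 0.134 in Tmem173-/- cGAMP, 0.131, 0.121 and 0.122 in Tmem173-/- control, 0.111, 0.115 and 0.117 in wild type cGAMP and 0.111, 0.119 and 0.111 in wild type control libraries. The lowest Tmem173-/- library thus lay above the highest wild type library, by less than the range within either genotype. This ratio of sums was not tested.

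Some segments were high in both wild type libraries numbered 2 rather than in a whole group. Ighv2-3, chosen after its values were seen, had 21.1 CPM in wild type cGAMP replicate 2 and 26.3 CPM in wild type control replicate 2, and 3.38 to 7.39 CPM in the other 10 libraries. It took 4.59% and 3.76% of heavy chain usage in wild type cGAMP and wild type control replicate 2, and at most 1.06% elsewhere. The kappa segment Igkv8-24 was highest in the same 2 libraries, with 60.5 CPM in wild type cGAMP replicate 2 and 58.4 CPM in wild type control replicate 2, against 19.7 to 39.4 CPM elsewhere. Neither was past the threshold in any comparison. Their near relatives did not stand out there, with Ighv2-6-8 at 0.895 and 0.633 CPM and Igkv8-30 at 11.9 and 12.3 CPM in these 2 libraries. Ighg2c, the constant region of an IgG subclass, was also highest there, at 40.2 and 42.0 CPM, with 0.373 to 20.7 CPM elsewhere.

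**Figure D5:**
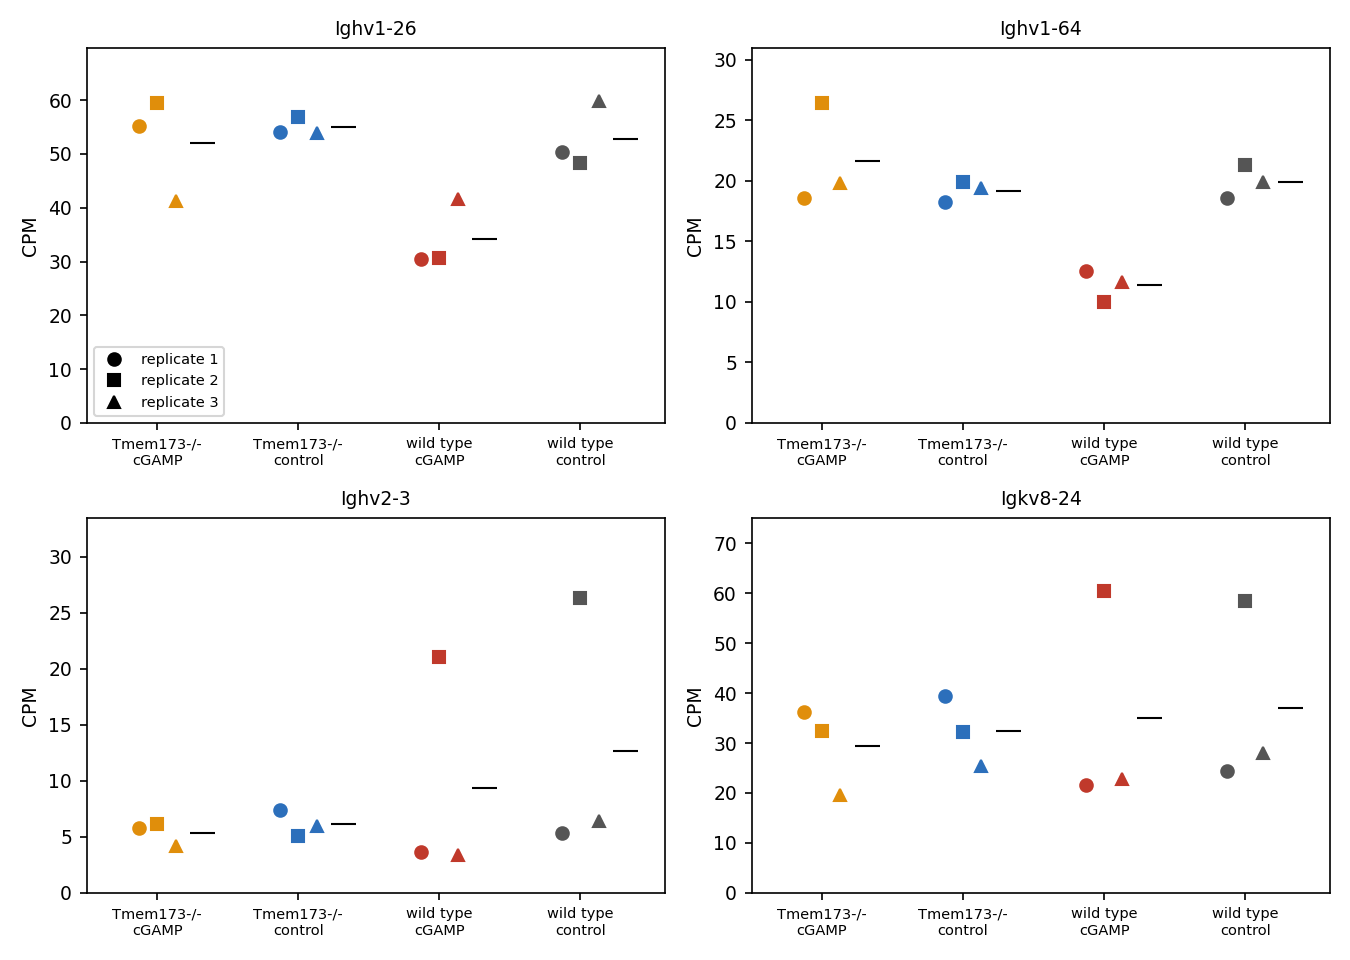
CPM of Ighv1-26, Ighv1-64, Ighv2-3 and Igkv8-24 in each library (vertical axes from 0), by group, with marker shapes for the replicate numbers and a short line at the group mean. Ighv1-64 is low in the 3 wild type cGAMP libraries, while Ighv2-3 and Igkv8-24 stand out in both wild type libraries numbered 2.

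Ighv11-2, also chosen after its values were seen, is a segment typical of B-1a cells, an innate-like B cell class of the body cavities. It had 1.13, 0.447 and 0.747 CPM in wild type cGAMP libraries, against 3.10, 1.30 and 1.02 CPM in wild type control libraries, and these ranges overlapped. It fell by 1.22 ± 0.44 on the log2 scale (SE, adjusted p = 0.032, edgeR), a call lost without wild type control replicate 1, wild type cGAMP replicate 2 or wild type cGAMP replicate 3, and without both wild type libraries numbered 1 or 2. The call was also lost with limma on FPKM. Igkv14-126, the light chain segment often paired with it, had 9.02, 8.40 and 7.37 CPM in wild type cGAMP and 9.83, 10.3 and 10.1 CPM in wild type control libraries, and was not past the threshold (log2 fold change -0.29). Not every little used heavy segment fell. The only Ighv12 segment had a log2 fold change of 0.13 in the same comparison and was not called. Segments of B-1a cells were not examined as a set, so nothing is read here about those cells.

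Genes that work with the segments moved in part with them. Of 30 listed genes of immunoglobulin transcription and assembly, 27 were tested, and in wild type cGAMP against wild type control libraries 14 were lower and 1 higher (median log2 fold change -0.28), where 25.4% of all tested genes were lower and 22.4% higher. Ighm and Ighd, the constant regions of IgM and IgD to which most naive V segments are joined, fell by 0.39 ± 0.10 and 0.61 ± 0.13 on the log2 scale (SE). Ighm had 2505, 2463 and 2456 CPM in wild type cGAMP libraries, against 3225, 3285 and 3237 CPM in wild type control libraries. Igkc, the kappa constant region, had a log2 fold change of -0.18 and was not past the threshold (adjusted p = 0.22, edgeR).

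Among the lambda constant regions Iglc1, Iglc2 and Iglc3 fell by 0.50, 0.58 and 1.06, the first a call lost without any one of wild type cGAMP replicates 1 and 3 and wild type control replicates 2 and 3. In mice Iglv1 is joined mainly to Iglc1 or Iglc3, and Iglv2 and Iglv3 to Iglc2. Iglc2 and Iglc3 are close copies, so the split of their counts is uncertain. The switched constant regions Ighg1, Ighg2b, Ighg2c, Ighg3 and Igha did not pass, nor did Jchain, which links secreted IgM and IgA.

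Cd79a and Cd79b, which carry the signal of surface immunoglobulin, fell by 1.07 ± 0.11 and 1.31 ± 0.13 on the log2 scale (SE). Among transcription factors, Pou2af1, a coactivator at the octamer motif of V promoters, fell by 0.55 ± 0.08 and its partner Pou2f1 by 0.47 ± 0.10 (SE), while Pou2f2 had -0.14 and did not pass. Spi1, Tcf3 and Ebf1 fell by 0.69, 0.44 and 0.28, and Pax5, which holds B cell identity, was the 1 gene that rose, by 0.33 ± 0.12 (SE). The call of Ebf1 was lost without either wild type library numbered 2, with scaling by library totals and with limma on FPKM. That of Pax5 was lost without any of wild type cGAMP replicates 1 to 3 or wild type control replicates 1 and 3. Xbp1 and Prdm1, factors of antibody-secreting cells, fell by 0.37 and 0.66. Summed plasma cell markers were at 840 to 925 CPM in wild type cGAMP libraries, against 986 to 1080 CPM in wild type control libraries. The markers did not move alike. Irf4, the largest part of the sum, had means of 590 and 560 CPM in these groups, and Jchain 58.0 and 53.9 CPM. Sdc1 had means of 19.3 and 70.5 CPM, and Mzb1 133 and 224 CPM. The part of plasma cells in the V segment counts was not tested. Spib, Irf4 and Irf8 did not pass, Rag1 was at most at 1.69 CPM, and Rag2 and Dntt were too low to test.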

How the data were processed

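RNA of 12 B lymphocyte libraries was measured by sequencing. The authors deposited gene counts and, as a second unit, FPKM. Per the submitters' processing notes, reads were handled with fastp, STAR and featureCounts on GRCm38/mm10. Versions, annotation, strandedness and the treatment of reads with several matches are not given in the sources used here. Positions of all 218 segments equalled those of GENCODE M21.

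Counts were tested with edgeR 4.0.16 in R 4.3.3: filterByExpr by group (14473 genes), TMM scaling, robust quasi-likelihood F tests, two-sided, 1 mean per group, 5 contrasts, Benjamini-Hochberg adjustment within each over all tested genes, threshold 0.05. CPM are TMM-scaled. Usage and diversity came from FPKM as deposited. Shares are of all counts. The code was tested on simulated data. Alternatives included DESeq2 1.42.0 and limma 3.58.1 on log2(FPKM + 1), other scalings and filters, and leaving out libraries.

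Named segments were the 5 most used per chain (all 3 for lambda), up to 5 per contrast and direction with the largest change at 5 CPM or more and no overlap (for the difference of responses, no overlap rule), and the 5 with the highest library (at least 50 CPM) relative to their median. Members and lists were chosen with earlier results of these data known. All deposited columns of the count table were used.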

Additional observations from a re-analysis of the deposited data

Results flagged for a closer look

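The response to cGAMP differed between the genotypes for 12 of the 27 segments named by the rule, and for Ighv1-71 and Igkv6-17, named after their values were seen, by the test of the difference itself (edgeR, Tmem173-/- response minus wild type response on the log2 scale). Of the 12, 5 (Ighv1-61, Ighv1-64, Ighv1-76, Ighv10-3 and Ighv1-59) were named for their large value in this same contrast, so nothing is read from the count. Over all 198 tested segments 11.6% were higher, where 17.5% of all tested genes were higher. The values were 1.93 for Ighv1-71, 1.27 for Ighv1-61, 0.98 for Ighv1-64, 0.96 for Ighv1-76, 0.94 for Ighv10-3, 0.82 for Ighv1-59, 0.81 for Ighv1-81, 0.77 for Ighv1-15, 0.73 for Ighv1-82, 0.70 for Ighv1-52, 0.63 for Ighv1-53, 0.54 for Ighv1-26, 0.52 for Igkv6-17 and 0.64 for Iglv3. Adjusted p ran from 0.00090 for Ighv1-64 to 0.046 for Ighv1-26. With equal V segment totals 12 of the 14 calls were lost. Without Tmem173-/- cGAMP replicate 2, 8 were lost, which were those of Ighv1-26, Ighv1-76, Ighv1-15, Ighv1-81, Ighv1-52, Ighv1-59, Ighv1-53 and Igkv6-17. The call of Ighv1-26 was lost under 14 of the alternatives, among them the absence of any single library but Tmem173-/- cGAMP replicate 3, wild type cGAMP replicate 3 and wild type control replicate 2. That of Ighv1-52 was lost under 8, also without Tmem173-/- control replicate 1, wild type cGAMP replicate 2 or wild type control replicate 3. That of Ighv1-53 was lost under 8, also without Tmem173-/- cGAMP replicate 1, Tmem173-/- control replicate 3 or wild type cGAMP replicate 2 or 3. That of Ighv1-81 was lost under 5, also without wild type cGAMP replicate 2, and that of Ighv1-15 under 2. Ighv1-64 and Ighv1-71 were called under all alternatives tried. None of these addressed the uncertain split of reads between Ighv1-71 and its near copy Ighv1-62-2. Their sum was 2.57, 2.89 and 2.99 CPM in Tmem173-/- cGAMP and 2.19, 2.99 and 2.92 CPM in Tmem173-/- control libraries. The sum was not tested. With 3 libraries in each group, no test for a single outlying library was made.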

How the results depend on the processing

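Results are given here against those of the report. In wild type cGAMP against wild type control libraries, the 67 lower segments became 9 with libraries scaled to equal V segment totals, which by construction takes out the change that the segments share. Leaving out single libraries gave 40 to 79, and 55 and 63 were lower without both wild type libraries numbered 1 and without both numbered 2. Under equal totals Igkv10-96 (log2 fold change 0.034), Igkv1-117 (0.078) and Ebf1 (0.082) turned positive. For the difference of responses, the 23 higher segments became 14 with library totals, 2 with equal totals and 7 to 27 when leaving out single libraries. In Tmem173-/- cGAMP against wild type cGAMP libraries, the 58 higher segments became 11 with equal totals, where 2 were lower, and 35 to 62 when leaving out single libraries. Without a filter on low counts 1 segment was lower there, 1 in Tmem173-/- cGAMP against Tmem173-/- control and 2 in Tmem173-/- control against wild type control libraries. As a share of summed FPKM, V segments of all chains differed by -0.161 percentage points in wild type cGAMP against wild type control (-0.0484 of counts) and by 0.143 points in Tmem173-/- cGAMP against wild type cGAMP (0.0394 of counts). Other causes of these shifts were not tested. Named genes were followed under alternatives only where the report called them, so a call could be lost but not gained. Of these values, 1474 kept their direction and side of the threshold, 179 lost the threshold and 3 reversed. The values that kept include fits that took out no library of the comparison, such as a Tmem173-/- library for the wild type response.

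With the replicate number as a block, 93 segments were lower in the wild type response, 37 had a higher response difference and 60 were higher in Tmem173-/- cGAMP. Over all tested genes, the deviations of same-numbered libraries correlated at 0.0698 to 0.466, and 12 of 12 libraries correlated best with their own number. Over the tested V segments the correlations were 0.144 to 0.494, and 11 of 12 libraries correlated best with their own number. The pairs did not all exceed 0.1 over all tested genes, so the numbers were not taken as pairs, and the correlations are a hint from the data and not the design. The comparison leaving out both wild type libraries numbered 2 was added after the data were seen.

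Depth limits the low segments: 20 of 218 could not be tested. Close copies share reads in an unknown way, and libraries share mice in an unknown way.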

Other observations

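Rows annotated as V pseudogenes were 155, of which 88 had a count and 12 could be tested. Their counts came to 0.359% to 0.627% of the V segment counts of a library. Igkv8-30 was at 23.2 CPM in wild type control replicate 1 and at 8.15 to 12.8 CPM in the other 11 libraries. By Bray-Curtis distance, the library with the nearest heavy chain usage had the same genotype and replicate number for 6 of 12 libraries, and that with the nearest kappa usage for 8 of 12.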
